A study of Mus musculus with 23 samples.

Results

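The enzymes that write and erase DNA methylation are described here in mice with T-cell acute lymphoblastic leukemia (T-ALL), a cancer of immature T cells, and in normal thymus. The 7 genes are Dnmt1, Dnmt3a and Dnmt3b (the DNA methyltransferases), Uhrf1 (the partner that guides Dnmt1) and Tet1, Tet2 and Tet3 (the dioxygenases that start demethylation). They were found by symbol among the 24475 genes of an RNA sequencing table, all 7 were present, and all 7 were among the 11919 genes that passed the filter on low values (3 or more libraries with a scaled RPKM of 1 or higher). Of the 23 libraries, 6 were made from the thymus of normal C57BL/6 mice and serve as controls (thymus, n = 6). The leukemias were spleens of BALB/c mice of genotype Rag2-/-Il2rg-/- into which a thymus lobe of a newborn donor had been grafted under the kidney capsule, and they are split by the genotype of that graft into wild type (WT T-ALL, n = 14) and Notch3 knockout (Notch3 KO T-ALL, n = 3). According to the methods, wild-type grafts came from a C57BL/6 congenic line and every host received a single lobe, so that each leukemia arose separately. The age of the control mice is not given in the sources used here, and the hosts were young adults at grafting. Tissue and host strain cannot be told apart from disease, since no leukemic thymus, normal spleen or BALB/c control was among the libraries analysed here.

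Methylation of cytosine in CG pairs is copied after each round of DNA replication. Uhrf1 recognises DNA that carries the mark on the old strand alone and brings Dnmt1 to it, while Dnmt3a and Dnmt3b set the mark on DNA that lacked it. The Tet enzymes oxidise the methyl group, after which it is lost through replication or through base excision repair. In blood cells DNMT3A and TET2 are known as genes that are recurrently mutated in human leukemia, T-ALL included. Methylation itself was not measured in these libraries, which report RNA levels of unfractionated tissue.

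Values below are log2(scaled RPKM + 1) unless scaled RPKM is named, where RPKM is the read number corrected for transcript length and library size, scaled by the authors to the same upper quartile in every library. Because 1 is added before the logarithm, a difference understates the fold change of a gene at a low level. There are no read counts, the methods give only an approximate depth for all samples together, and between 10154 and 11011 genes per library reached a scaled RPKM of 1. The median change of all genes tested was 0.08 in both comparisons with thymus. Rescaling all libraries to the same sum without mitochondrial and hemoglobin genes moved that median to -0.28 for WT T-ALL and -0.32 for Notch3 KO T-ALL, and the share of called genes that were higher in the leukemias went from 56.8% to 28.5% and from 56.5% to 25.7%. With quantile normalization these shares were 48.5% and 45.7%. Notch3, the gene disrupted in the donors of 1 group, had a range of 2.62 to 4.29 in thymus, 3.17 to 5.78 in the wild-type and 2.59 to 3.74 in the knockout leukemias. As described in the methods, the knockout allele carries a reporter inserted in the first coding exon, so a level over the whole gene does not check those labels.

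**Figure D1:**
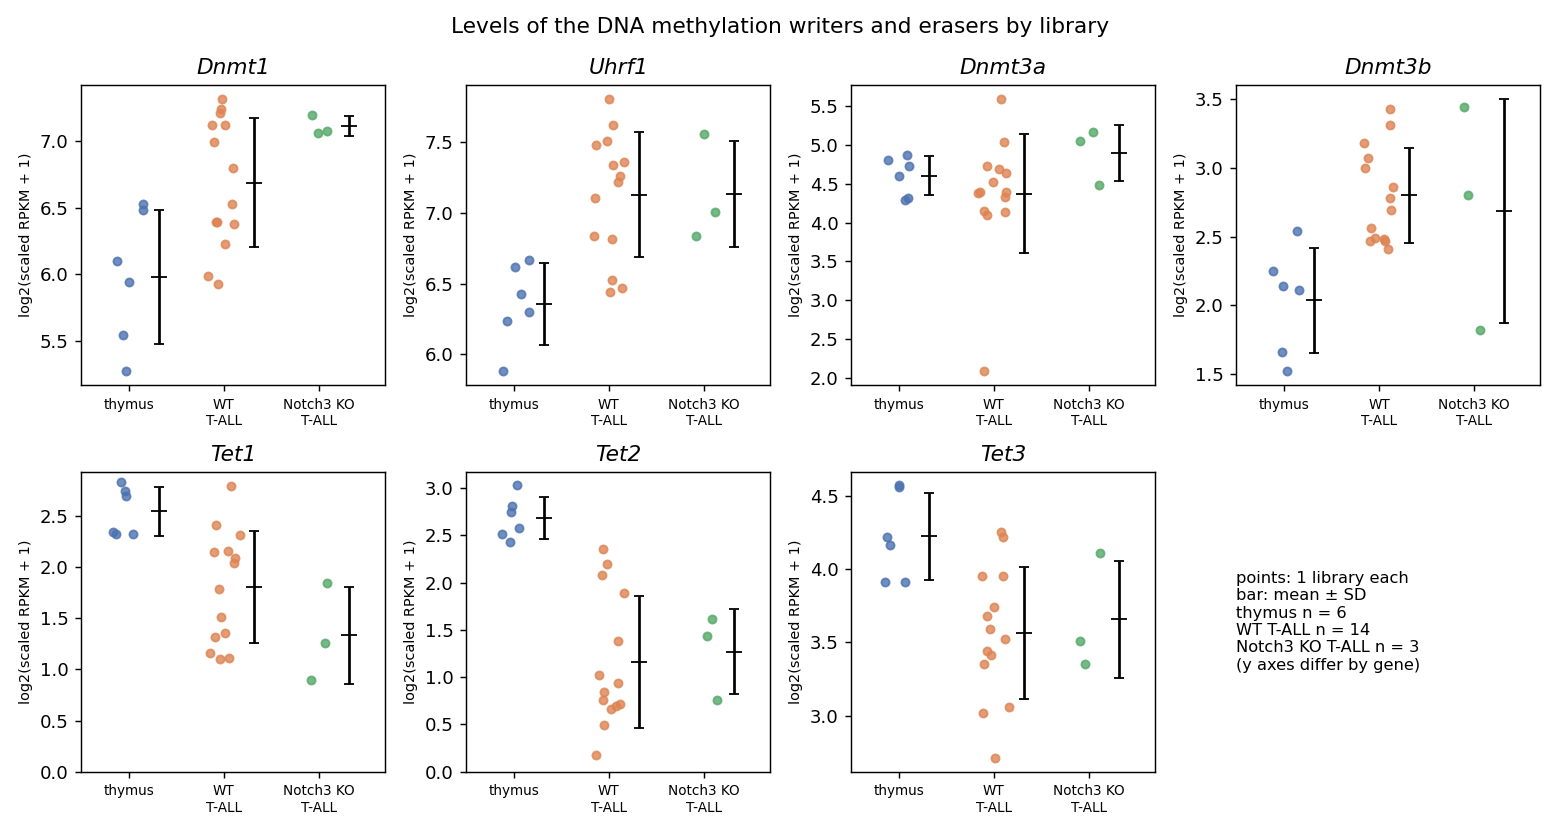
Level of each of the 7 genes in every library, as log2(scaled RPKM + 1), with 1 point per library and bars at the mean ± SD of thymus (n = 6), WT T-ALL (n = 14) and Notch3 KO T-ALL (n = 3). The y axes differ between genes. All 14 WT T-ALL libraries lie below all 6 thymus libraries for Tet2, and 1 WT T-ALL library stands at 2.09 for Dnmt3a, apart from the other 13.

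The maintenance pair Dnmt1 and Uhrf1 was higher in both leukemia groups than in thymus. Dnmt1 (gene 13433, chromosome 9, 20907206 to 20959888 on GRCm38.p6) had a lowest, median and highest value of 5.27, 6.02 and 6.53 in thymus and of 5.93, 6.66 and 7.32 in WT T-ALL. The Notch3 KO T-ALL libraries 1, 2 and 3 stood at 7.08, 7.20 and 7.06. Thus 8 of 14 WT T-ALL libraries exceeded every control, with T-ALL 111 highest and T-ALL 48 lowest, and all 3 Notch3 KO T-ALL libraries did so. A gene higher in every Notch3 KO T-ALL library than in all controls was common, at 23.9% of the genes tested. In mean scaled RPKM, Dnmt1 went from 65.1 ± 21.9 (SD, n = 6) in thymus to 107 ± 34.7 (n = 14) in WT T-ALL and 137 ± 7.37 (n = 3) in Notch3 KO T-ALL. The log2 change was 0.71 (SE 0.22, limma adjusted p = 0.00872) for WT T-ALL and 1.13 (SE 0.31, limma adjusted p = 0.00671) for Notch3 KO T-ALL.

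Uhrf1 (gene 18140, chromosome 17, 56303337 to 56323486) had a lowest, median and highest value of 5.88, 6.37 and 6.67 in thymus and of 6.44, 7.24 and 7.81 in WT T-ALL. It was 6.84, 7.01 and 7.56 in Notch3 KO T-ALL 1, 2 and 3. The groups overlapped only through the 3 lowest WT T-ALL libraries, so that 11 of 14 WT T-ALL and 3 of 3 Notch3 KO T-ALL libraries lay above every control. In mean scaled RPKM Uhrf1 rose from 82.2 ± 15.9 (n = 6) to 145 ± 42.5 (n = 14) and 143 ± 39.4 (n = 3), with log2 changes of 0.77 (SE 0.19, limma adjusted p = 0.00189) and 0.78 (SE 0.28, limma adjusted p = 0.0300). The second of these was not called without Notch3 KO T-ALL 3 (limma adjusted p = 0.197) or without thymus 6 (limma adjusted p = 0.0646).

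Cell cycle genes moved with this pair. The mean level of 30 cell cycle genes (15 of G1/S and 15 of G2/M, none of them a member) was between 4.75 and 5.49 in thymus, between 5.73 and 6.53 in WT T-ALL and between 6.20 and 6.49 in the Notch3 KO leukemias, with no overlap between thymus and either leukemia group, so group and score cannot be told apart. With this score as a covariate the change of Dnmt1 in WT T-ALL became -0.25 (limma adjusted p = 0.659) and that of Uhrf1 became -0.12 (limma adjusted p = 0.819). Within the 14 WT T-ALL libraries Dnmt1 changed by 1.18 (SE 0.42) and Uhrf1 by 1.15 (SE 0.38) per unit of the score, and neither slope was called (limma adjusted p = 0.418 and 0.368). Only 2 of 11446 genes, or 0.0175%, were called on this slope. Rescaled to the same sum, Dnmt1 and Uhrf1 kept positive changes of 0.30 and 0.36 in WT T-ALL that were no longer called (limma adjusted p = 0.334 and 0.193), and in Notch3 KO T-ALL changes of 0.68 and 0.32 that were not called either (0.156 and 0.466). With quantile normalization Dnmt1 in WT T-ALL (limma adjusted p = 0.0593) and Uhrf1 in Notch3 KO T-ALL (limma adjusted p = 0.167) lost their calls.

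The start regions of these 2 genes are shown because both rose together with the cell cycle genes and because each holds a letter string that E2F factors, which drive genes of DNA replication, are known to bind. Windows from 250 bases before to 50 bases after each RefSeq transcription start (GRCm38.p6) were searched on both strands for TTTCGCGC, TTTGGCGC or TTTCCCGC. Of the 12 windows of the 7 genes, 2 held such a string, 1 at Dnmt1 and 1 at Uhrf1, against 1.84% of all 32817 windows. Both windows held 33 CG pairs, against a median of 7 over all windows. The searched strings hold CG themselves, and the 1.84% is not a share among windows of like CG content. The stretches below give the strand of the gene, with TTTCGCGC or its reverse complement in capitals. In Dnmt1 (chr9:20952824-20952853, minus strand) the string begins at position -219 from the start, and in Uhrf1 (chr17:56304117-56304146, plus strand) at position -185. The same Dnmt1 window also held TTTGGCGC, at position 34 after the start, which is not printed. The other windows of Dnmt1 and Uhrf1 held none of the searched strings.
Dnmt1: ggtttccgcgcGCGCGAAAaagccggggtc
Uhrf1: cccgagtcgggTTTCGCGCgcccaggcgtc
The E-box CACGTG was found in 1 of the 12 windows, at Dnmt3a, against 7.15% of all windows. The string GTGGGAA, which RBPJ (the DNA-binding partner of Notch) is known to bind, was in 0 of the 12 and in 6.39% of all windows. These are matches of letters only, and no binding was measured.

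The de novo enzymes differed from each other. Dnmt3b (gene 13436, chromosome 2, 153649411 to 153687730), which in adult tissues is usually the less expressed of the pair, had a lowest, median and highest value of 1.52, 2.13 and 2.54 in thymus and of 2.41, 2.74 and 3.43 in WT T-ALL. It was 2.81, 1.82 and 3.44 in Notch3 KO T-ALL 1, 2 and 3. In WT T-ALL 9 of 14 libraries lay above every control, and in Notch3 KO T-ALL 2 of 3 did, with library 2 inside the control range. Mean scaled RPKM was 3.22 ± 1.07 (n = 6) in thymus, 6.17 ± 1.81 (n = 14) in WT T-ALL and 6.13 ± 3.69 (n = 3) in Notch3 KO T-ALL. Dnmt3b was called higher in WT T-ALL (log2 change 0.77, SE 0.20, limma adjusted p = 0.00348) and not in Notch3 KO T-ALL (log2 change 0.65, SE 0.30, limma adjusted p = 0.0856). Without Notch3 KO T-ALL 2 the latter was 1.09 and was called (limma adjusted p = 0.00712). Rescaled to the same sum, the change in WT T-ALL was 0.44 and was not called (limma adjusted p = 0.0987).

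Dnmt3a (gene 13435, chromosome 12, 3801559 to 3914443) was the member that passed the test in no comparison. Its lowest, median and highest values were 4.29, 4.67 and 4.87 in thymus and 2.09, 4.39 and 5.59 in WT T-ALL, and it was 5.04, 5.16 and 4.48 in Notch3 KO T-ALL 1, 2 and 3. Among the WT T-ALL libraries 4 lay below and 2 above every control. Mean scaled RPKM was 23.5 ± 4.07 (n = 6), 21.9 ± 9.65 (n = 14) and 29.4 ± 7.09 (n = 3). The log2 change from thymus was -0.23 in WT T-ALL, with a 95% interval from -0.83 to 0.37 (limma adjusted p = 0.52), and 0.30 in Notch3 KO T-ALL (limma adjusted p = 0.603), where it was -0.15 after rescaling to the same sum, 0.50 without library 3 and 0.16 without library 2, and called in none of these.

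The spread of Dnmt3a in WT T-ALL came largely from 1 leukemia. In T-ALL 5 it stood at 2.09, or 3.26 in scaled RPKM, whereas the other 13 libraries ran from 4.10 to 5.59 with a median of 4.39. Its difference from that median was -2.3, and 45 of 11476 genes in T-ALL 5, Dnmt3a included, lay at least as far below their own median of the other 13. The next 5 genes past the filter downstream of Dnmt3a on chromosome 12 were also lower in T-ALL 5 than in each of the other 13, a run that was noticed after its values were seen and that carries no test. Pomc, the precursor of pituitary peptide hormones, was at 0.00 against 0.71 to 1.47 in the other 13 and 0.18 to 1.05 in thymus. Efr3b, which anchors a lipid kinase at the plasma membrane, was at 0.01 against 1.32 to 3.59, and it was low in thymus too, at 0.29 to 0.48. Dnajc27 was at 0.24 against 2.02 to 3.62 and a thymus range of 1.73 to 2.15. The last 2 genes of the run were less far from the other leukemias, and Cenpo in T-ALL 5 lay inside the thymus range. Adcy3, an adenylate cyclase, stood at 1.59 against 1.83 to 3.91 (thymus 2.23 to 2.62), and Cenpo, a kinetochore protein gene, at 2.41 against 2.56 to 4.54 (thymus 2.30 to 2.77). Of all genes past the filter in WT T-ALL, 11.8% had their lowest value in T-ALL 5, and this share was between 1.88% and 14.0% in the other libraries. Of the 26 genes past the filter within 5 Mb, 5 were below and 3 above all of the other 13 libraries, and the median difference was 0.06. The cause was not tested. Without T-ALL 5 the change of Dnmt3a from thymus was -0.06 (limma adjusted p = 0.804).

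**Figure D2:**
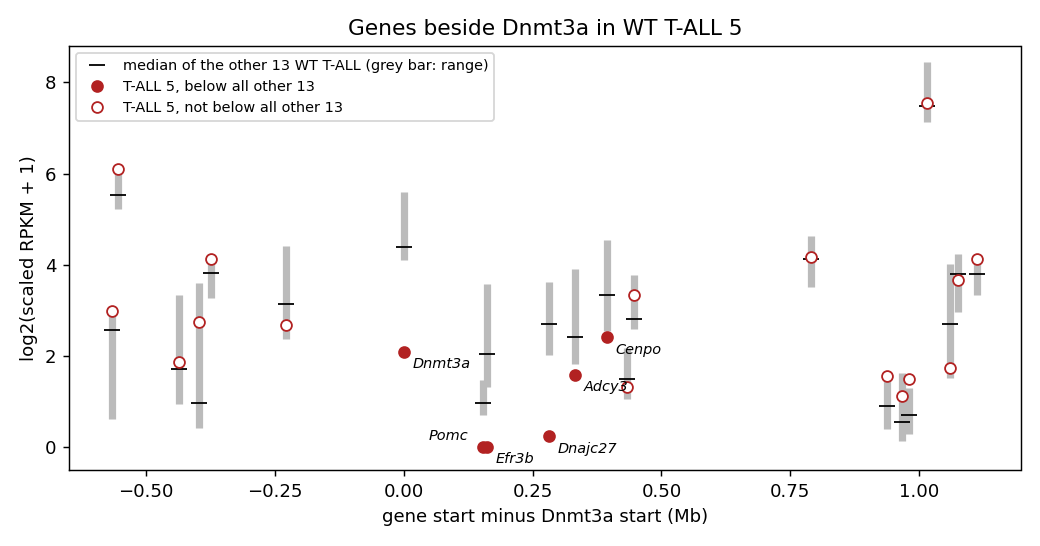
Genes near Dnmt3a in WT T-ALL 5, as log2(scaled RPKM + 1) against the distance of each gene's start from that of Dnmt3a in Mb. Grey bars give the range and black marks the median of the other 13 WT T-ALL libraries, circles give T-ALL 5, and filled circles mark Dnmt3a and the 5 genes that lie below all of the other 13.

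The 3 erasers were lower in WT T-ALL, and Tet1 and Tet2 were lower in Notch3 KO T-ALL, with the largest change at Tet2 in each. Tet2 (gene 214133, chromosome 3, 133463677 to 133545136), the Tet enzyme best known in blood stem cells and myeloid cells, had a lowest, median and highest value of 2.43, 2.67 and 3.03 in thymus and of 0.18, 0.89 and 2.35 in WT T-ALL. It was 1.61, 1.44 and 0.76 in Notch3 KO T-ALL 1, 2 and 3. Every leukemia library lay below every control, which held for 6.64% of the genes tested in WT T-ALL and for 18.4% in Notch3 KO T-ALL. Within WT T-ALL the values were spread widely, from T-ALL 36 at 0.18 to T-ALL 7, T-ALL 108 and T-ALL 110 at 2.20, 2.08 and 2.35. In mean scaled RPKM Tet2 fell from 5.50 ± 1.03 (n = 6) to 1.50 ± 1.32 (n = 14) and 1.48 ± 0.709 (n = 3). The log2 change was -1.53 (SE 0.28, limma adjusted p = 9.05e-05) for WT T-ALL and -1.42 (SE 0.40, limma adjusted p = 0.00782) for Notch3 KO T-ALL, the second without a call when Notch3 KO T-ALL 3 was left out (limma adjusted p = 0.0696). Rescaled to the same sum the changes were -1.85 and -1.76 and were called.

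The start region of Tet2 is shown because its fall was the largest among the members and because the region is dense in CG, the pair of letters that these enzymes act on. Its window held 57 CG, a count that 99.9% of all windows did not exceed, and the median over all windows was 7. The 250 bases before the start (chr3:133544391-133544640, minus strand, GRCm38.p6) hold 51 of them, in capitals. Their methylation was not measured. A high CG count was not particular to Tet2 or to the genes that fell. Windows of Dnmt3a held up to 47 CG and those of Dnmt1 and Uhrf1 up to 33, whereas Tet3 held 22 and Tet1 17.
Tet2: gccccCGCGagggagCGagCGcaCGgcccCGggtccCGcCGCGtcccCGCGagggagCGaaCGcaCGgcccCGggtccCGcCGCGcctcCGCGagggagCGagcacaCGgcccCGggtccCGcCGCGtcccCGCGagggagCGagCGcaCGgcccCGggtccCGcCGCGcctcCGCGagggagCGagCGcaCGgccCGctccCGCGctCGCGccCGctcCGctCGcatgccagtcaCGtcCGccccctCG

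Tet1 (gene 52463, chromosome 10, 62804570 to 62887469), known mostly from embryonic stem and germ cells, had a lowest, median and highest value of 2.32, 2.51 and 2.83 in thymus and of 1.10, 1.91 and 2.79 in WT T-ALL. It was 0.90, 1.84 and 1.26 in Notch3 KO T-ALL 1, 2 and 3. In WT T-ALL 12 of 14 libraries, and in Notch3 KO T-ALL 3 of 3, lay below every control. The log2 change was -0.73 (SE 0.23, limma adjusted p = 0.0107) in WT T-ALL and -1.21 (SE 0.33, limma adjusted p = 0.00674) in Notch3 KO T-ALL, and the second was not called without Notch3 KO T-ALL 1 (limma adjusted p = 0.0572). Tet3 (gene 194388, chromosome 6, 83362373 to 83457208), the Tet enzyme of the oocyte that is also widespread in differentiated cells, had a lowest, median and highest value of 3.91, 4.19 and 4.57 in thymus and of 2.71, 3.55 and 4.25 in WT T-ALL. It was 3.51, 4.11 and 3.35 in Notch3 KO T-ALL 1, 2 and 3. In WT T-ALL 10 of 14 libraries were below every control, and the change of -0.66 was called (SE 0.19, limma adjusted p = 0.00693). Of the Notch3 KO T-ALL libraries 2 of 3 were, and the change of -0.57 was not (SE 0.28, limma adjusted p = 0.115). It was called in 3 of 26 alternatives, after rescaling to the same sum (limma adjusted p = 0.0431), with only the compared groups in the fit (0.0464) and with the library set as a term (0.0430).

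Counted over the 7 genes, 6 were called in WT T-ALL against thymus (Dnmt1, Uhrf1 and Dnmt3b higher, the 3 Tet genes lower). This comparison called 51.6% of all genes tested, 29.3% as higher and 22.3% as lower. In Notch3 KO T-ALL against thymus 4 of 7 were called (Dnmt1 and Uhrf1 higher, Tet1 and Tet2 lower), beside 37.5% of all genes, 21.2% as higher and 16.3% as lower. The 2 comparisons share their 6 controls. An exact permutation test of each gene (2-sided, on the group means) gave the same 6 calls in WT T-ALL, beside 50.8% of all genes, with adjusted p over all genes from 0.000226 for Tet2 to 0.02 for Dnmt1, and p = 2.58e-05 for Tet2 is the smallest that its 38760 splits can give. In Notch3 KO T-ALL the exact permutation test called 3 members (Uhrf1, Tet1 and Tet2, adjusted p = 0.031), each at the smallest p of 0.0119 that 84 splits allow, beside 38.4% of all genes, while Dnmt1 had an adjusted p of 0.0537 by the exact test. In whole spleen, fewer cells of a type and less RNA of a gene per cell cannot be told apart.

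**Figure D3:**
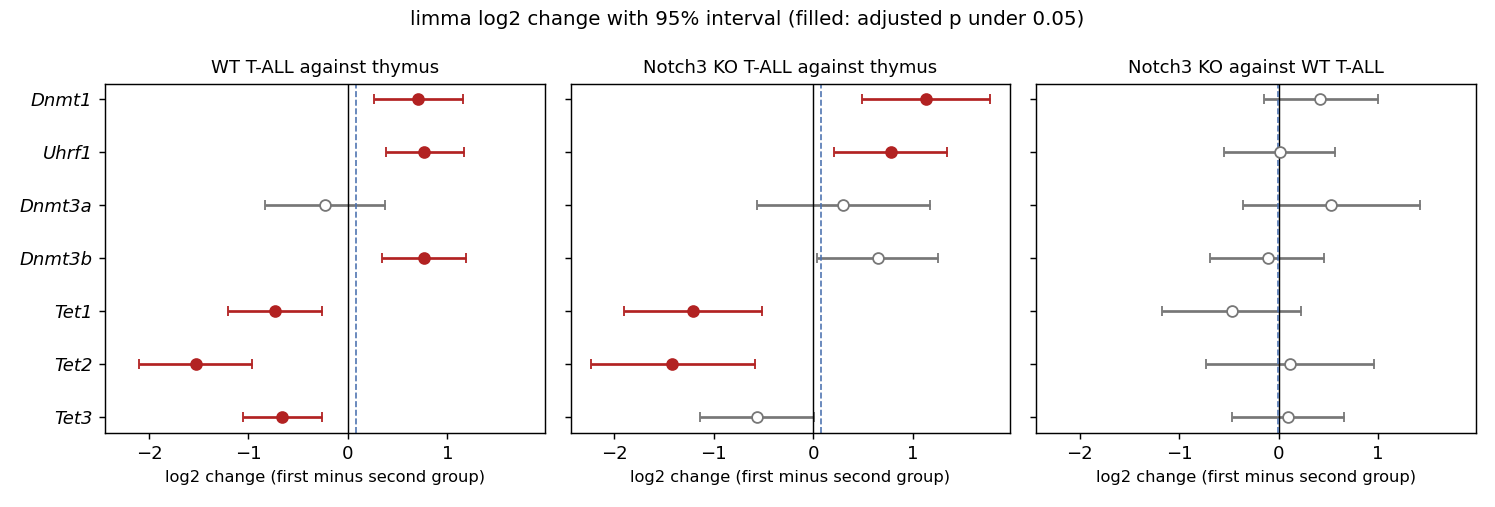
limma log2 change of each of the 7 genes with its 95% interval, for WT T-ALL against thymus, Notch3 KO T-ALL against thymus and Notch3 KO against WT T-ALL, where filled points mark an adjusted p under 0.05 and the dashed line is the median change of all genes tested. There are 6, 4 and 0 filled points. With the cell cycle score as a covariate the changes of Dnmt1 and Uhrf1 from thymus were negative in both leukemia groups. That score does not overlap between thymus and leukemia, so group and score cannot be told apart in that fit.

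The libraries fall into 2 sets that no label names, seen in the level of Sco2. It was 2.30 to 3.92 in 2 thymus, 4 WT T-ALL and all 3 Notch3 KO T-ALL libraries and 0.00 to 1.00 in the rest. Within the high set (4 WT T-ALL against 2 thymus) the changes were 1.28 for Dnmt1, 1.51 for Uhrf1, 1.40 for Dnmt3b, -0.69 for Tet1, -1.89 for Tet2 and -0.29 for Tet3, of which Uhrf1, Dnmt3b and Tet2 were called by limma, beside 14.7% of all genes tested there. Within the low set (10 against 4) they were 0.43, 0.45, 0.47, -0.77, -1.36 and -0.81, and Dnmt3b and the 3 Tet genes were called, while Dnmt1 (limma adjusted p = 0.156) and Uhrf1 (limma adjusted p = 0.0808) were not, beside 42.7% of all genes. The directions of these 6 genes held in both sets, and Dnmt3b and Tet2 were called in each. With thymus 5 and 6, the controls of the high set, left out of the full fit, Dnmt1 in WT T-ALL was 0.43 (limma adjusted p = 0.151) and Dnmt3b was 0.54 (limma adjusted p = 0.0646), and the other 4 calls held, beside 39.2% of all genes. All 3 Notch3 KO T-ALL libraries were in the high set, in which the changes from the 2 thymus libraries were 1.71 for Dnmt1, 1.08 for Uhrf1 and -1.65 for Tet2, all called by limma, and -0.99 for Tet1, which was not (limma adjusted p = 0.0652), beside 32.5% of all genes. Uhrf1 in Notch3 KO T-ALL was not called with the library set as a term (0.60, limma adjusted p = 0.112), with thymus 5 and 6 left out (0.63, limma adjusted p = 0.116) or with thymus pairs averaged (0.78, limma adjusted p = 0.0929), whereas Dnmt1, Tet1 and Tet2 were called in all 3 of these fits, which called 40.4%, 29.3% and 24.3% of all genes. The thymus libraries also formed close pairs (1 and 3, 2 and 4, 5 and 6), with an SD over genes of the log2 difference of 0.196 to 0.311 within and 0.373 to 0.603 between pairs. With each pair averaged, Uhrf1, Dnmt3b and Tet2 were called in WT T-ALL and Dnmt1, Tet1 and Tet3 were not (limma adjusted p = 0.0605, 0.0828 and 0.0621), beside 30.5% of all genes.

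Ranked by scaled RPKM, which is set per transcript length, the members stood in the order Uhrf1, Dnmt1, Dnmt3a, Tet3, Tet2, Tet1, Dnmt3b in thymus. Mean scaled RPKM ran from 82.2 for Uhrf1 to 3.22 for Dnmt3b, and Tet2 at 5.50 exceeded Tet1 at 4.88 in only 3 of 6 libraries, so these neighbours did not differ beyond their spread. All other neighbours kept their order in 6 of 6 libraries. In WT T-ALL the first 4 places were unchanged, and Dnmt3b at 6.17 came next, above Tet1 at 2.73 in 13 of 14 libraries and above Tet2, now last at 1.50. Uhrf1 exceeded Dnmt1 in 13 of 14 WT T-ALL libraries and in 1 of 3 Notch3 KO T-ALL libraries. Tet1 exceeded Tet2 in 10 of 14 and in 2 of 3.

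Within the Dnmt family, the summed scaled RPKM was 91.9 ± 26.6 (n = 6) in thymus, 136 ± 38.7 (n = 14) in WT T-ALL and 173 ± 9.87 (n = 3) in Notch3 KO T-ALL. Dnmt1 held 70.0% ± 3.79, 78.5% ± 6.83 and 79.5% ± 1.48 of that sum, and Dnmt3a 26.5% ± 3.94, 16.7% ± 5.98 and 16.9% ± 3.31. The share of Dnmt3a ran from 21.0% to 32.4% in thymus and from 2.20% in T-ALL 5 to 23.5% in WT T-ALL. The summed Tet level was 28.4 ± 3.30 (n = 6), 15.6 ± 4.28 (n = 14) and 15.0 ± 4.85 (n = 3), and no leukemia library, at 9.62 to 24.1, reached the lowest thymus library at 24.4. Tet3 made up most of it, with 54.2% to 72.9% in thymus, 57.8% to 88.3% in the wild-type and 78.1% to 81.6% in the knockout leukemias. The share of Tet2 was 19.6% ± 4.33, 9.39% ± 7.60 and 9.96% ± 4.88, and in WT T-ALL it ran from 1.23% to 26.3%. No test was run on these shares.

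**Figure D4:**
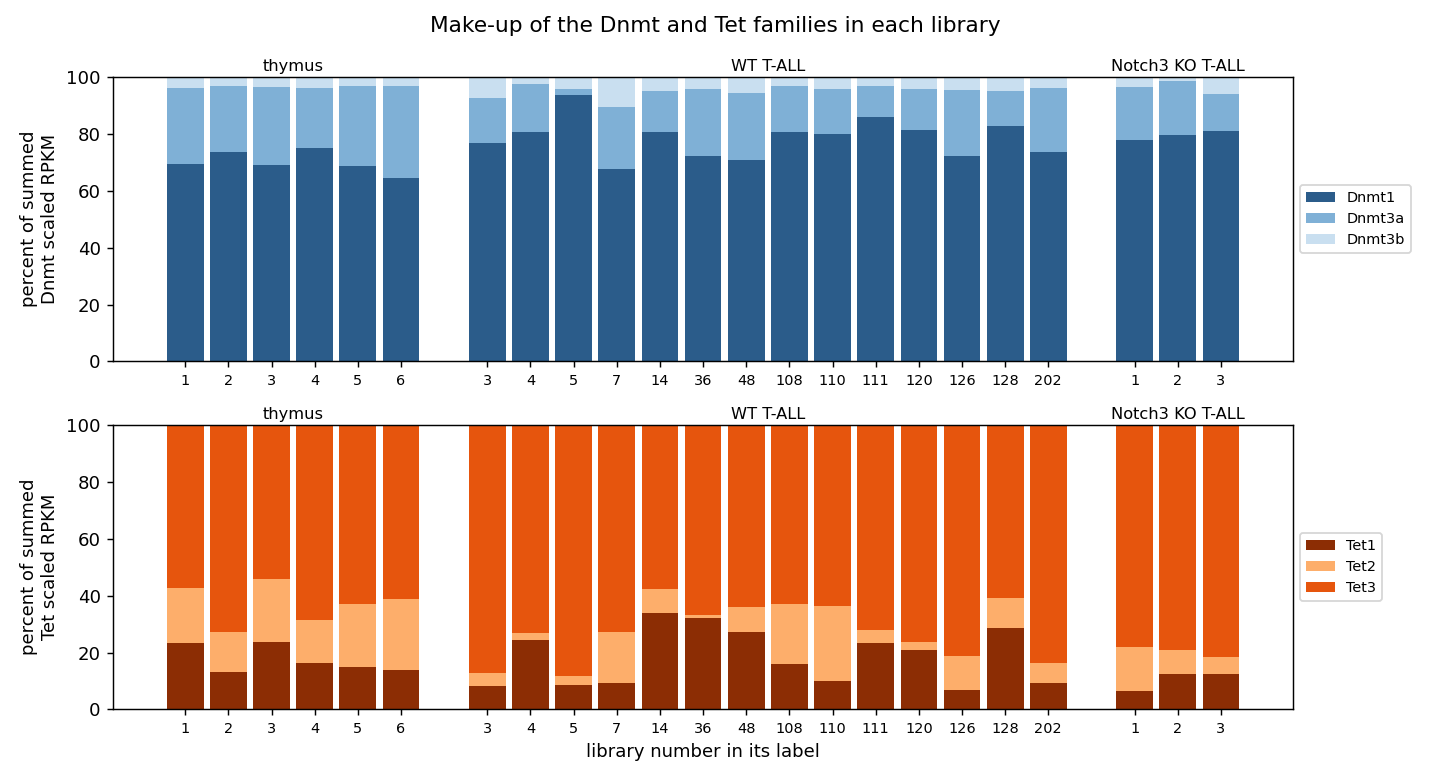
Share of each enzyme in the summed scaled RPKM of the Dnmt family (upper row) and of the Tet family (lower row), in percent, with 1 bar per library. Dnmt1 holds 64.4% to 93.6% of the Dnmt sum, highest in WT T-ALL 5, and Tet3 holds 54.2% to 88.3% of the Tet sum.

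The 2 leukemia groups did not differ in any of the 7 genes by limma, in a comparison that called 72 of 11677 genes, or 0.617%. That number became 3, 12 and 205 without Notch3 KO T-ALL 2, 3 and 1, 158 without WT T-ALL 108 and 2 with an offset of 0.01, each with 0 members called. The number of members with an unadjusted exact permutation p under 0.05 was also 0, beside 973 of all genes, of which 0 passed after adjustment (the smallest adjusted exact p was 0.263). The 95% intervals of Notch3 KO minus WT T-ALL still leave room for sizeable differences. They ran from -0.15 to 1.00 around 0.42 for Dnmt1, from -0.55 to 0.57 around 0.01 for Uhrf1, from -0.36 to 1.42 around 0.53 for Dnmt3a and from -0.69 to 0.46 around -0.11 for Dnmt3b. For the erasers they ran from -1.17 to 0.23 around -0.47 for Tet1, from -0.73 to 0.96 around 0.11 for Tet2 and from -0.47 to 0.66 around 0.09 for Tet3. Dnmt1, Dnmt3a, Uhrf1, Tet2 and Tet3 of every Notch3 KO T-ALL library lay inside the WT T-ALL range, whereas 1 library was above and 1 below it for Dnmt3b and 1 below it for Tet1. The signs for Uhrf1, Dnmt3b, Tet2 and Tet3 changed with the setting. The other members kept their sign over the alternatives but not their size, with 0.16 to 0.47 for Dnmt1, 0.03 to 0.98 for Dnmt3a and -0.74 to -0.25 for Tet1.

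Partner genes of the members were taken from 6 lists of 52 genes, of which 46 passed the filter. In WT T-ALL against thymus 30 of 46 were called, 14 higher and 16 lower, beside 51.6% of all genes, and in Notch3 KO T-ALL against thymus 25 were, 13 higher and 12 lower, beside 37.5%. After rescaling to the same sum these became 8 higher and 20 lower (beside 54.6%) and 4 higher and 14 lower (beside 41.1%). Single lists of 5 to 10 genes are counts beside the same shares, and no test compared a list with other genes. Of the maintenance partners 4 of 8 tested were higher and 3 lower in WT T-ALL (median change 0.27). Hells, a remodeller needed for methylation of repeats, rose from 4.63 to 5.33 in thymus to 5.33 to 6.58 (log2 change 1.05, limma adjusted p = 2.37e-05), and Lig1, the ligase that joins replicated fragments, rose by 1.20 (limma adjusted p = 1.15e-05). Both also rose in Notch3 KO T-ALL, by 0.82 (limma adjusted p = 0.0108) and 1.54 (limma adjusted p = 0.000104), without overlap with the controls. Other maintenance genes went the opposite way. Zbtb24, a regulator of the Hells partner Cdca7, fell by 0.67 on the log2 scale (limma adjusted p = 1.08e-05), from 3.68 to 3.83 in thymus to 2.82 to 3.43, and by 0.64 (limma adjusted p = 0.00148) in Notch3 KO T-ALL. Uhrf2, the paralog of Uhrf1, fell by 0.84 (limma adjusted p = 0.0065) in WT T-ALL and by 1.32 (limma adjusted p = 0.00528) in Notch3 KO T-ALL. In that group 3 of 8 were higher and 2 lower (median 0.30), Pcna, the replication clamp, among the higher at 0.69 (limma adjusted p = 0.0493) beside 0.66 (limma adjusted p = 0.0055) in WT T-ALL. The call of Hells in Notch3 KO T-ALL was lost without library 3 (limma adjusted p = 0.0905), and Uhrf2 was at -0.64 and not called without library 1 (limma adjusted p = 0.123). Pcna was not called without thymus 2, 4, 5 or 6 or any 1 of the Notch3 KO T-ALL libraries (limma adjusted p from 0.0576 to 0.163).

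Of the readers of methylated DNA 5 of 7 were lower and 1 higher in WT T-ALL (median change -0.49), and 4 were lower and 1 higher in Notch3 KO T-ALL (median -0.59). Zbtb4, a zinc finger protein that binds methylated CG, had a range of 2.83 to 3.31 in thymus, 0.39 to 1.65 in the wild-type and 0.61 to 1.37 in the knockout leukemias. Its log2 changes were -2.16 (SE 0.16, limma adjusted p = 3.71e-10) and -2.08 (SE 0.23, limma adjusted p = 7.36e-07), larger than that of any member. Zbtb33, also known as Kaiso, fell by 0.61 (limma adjusted p = 0.00504) and by 0.96 (limma adjusted p = 0.00394). Zbtb38, a relative of Zbtb4, was the reader that rose, from 1.97 to 2.47 in thymus to 2.99 to 4.58 in WT T-ALL (log2 change 1.39, limma adjusted p = 2.32e-06) and to 3.10 to 3.57 in Notch3 KO T-ALL (1.09, limma adjusted p = 0.00282).

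Of the demethylation and repair genes 4 of 10 tested were higher and 2 lower in each leukemia group (median changes 0.06 and 0.11). Apex1, the endonuclease of base excision repair, rose by 1.52 (limma adjusted p = 6.63e-05) in WT T-ALL and by 2.10 (limma adjusted p = 0.000232) in Notch3 KO T-ALL, and the stress gene Gadd45g rose by 1.45 (limma adjusted p = 6.59e-05) and by 1.03 (limma adjusted p = 0.0317). The glycosylase Neil1 fell by 1.25 (limma adjusted p = 0.000162) and by 1.26 (limma adjusted p = 0.00628). Gadd45b, of the same family as Gadd45g, fell by 0.78 (limma adjusted p = 0.0226) and by 1.05 (limma adjusted p = 0.0421). The call of Neil1 in Notch3 KO T-ALL was lost without library 1 (limma adjusted p = 0.0624) and that of Gadd45b without thymus 1, 2, 3 or 4 or any 1 Notch3 KO T-ALL library (0.0571 to 0.146), and in WT T-ALL that of Gadd45b was lost without thymus 1 (limma adjusted p = 0.0606) or 2 (0.0524). Gadd45a was the only partner gene called between the leukemia groups. It lay between 4.10 and 5.13 in Notch3 KO T-ALL, between 2.58 and 4.23 in WT T-ALL and between 3.09 and 3.95 in thymus, with a change of 1.37 (SE 0.30, limma adjusted p = 0.0373) between the leukemia groups and of 1.21 (SE 0.31, limma adjusted p = 0.00414) against thymus. The call between the leukemia groups was lost when any of WT T-ALL 4, 5, 14, 36, 120, 126, 128 or 202 or Notch3 KO T-ALL 2 or 3 was left out, with changes of 1.14 to 1.38.

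Of 8 Tet cofactors and regulators 1 was higher and 3 were lower in each leukemia group (median changes -0.08 and -0.16). Ogt, the sugar transferase that binds Tet proteins, fell by 0.84 (limma adjusted p = 0.000451) and by 1.02 (limma adjusted p = 0.00367). Vhl, the ligase subunit that degrades hypoxia factors, fell by 0.52 (limma adjusted p = 0.000339) in WT T-ALL and by 0.70 (limma adjusted p = 0.0013) in Notch3 KO T-ALL. Of 5 de novo partners 1 was higher and 2 were lower in WT T-ALL, and 1 was higher and 1 lower in Notch3 KO T-ALL (median changes -0.21 and -0.10). Nsd1, which sets the histone mark that Dnmt3a reads, fell by 0.65 (limma adjusted p = 0.00231) in WT T-ALL and by 0.80 (limma adjusted p = 0.0115) in Notch3 KO T-ALL. Of 8 genes of the methyl donor cycle 3 were higher and 1 lower in WT T-ALL and 3 higher and 0 lower in Notch3 KO T-ALL (median changes 0.24 and 0.27). Mtap, which salvages methionine, rose by 1.48 (limma adjusted p = 1.87e-05) and by 1.53 (limma adjusted p = 0.00123), and Ahcy, which clears S-adenosylhomocysteine, by 1.14 (limma adjusted p = 4.61e-05) and 0.91 (limma adjusted p = 0.0137). The Ahcy relative Ahcyl1 rose by 0.31 (limma adjusted p = 0.0023) in WT T-ALL, and it was at -0.09 there after rescaling to the same sum.

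Of 16 germline genes that DNA methylation is known to keep silent in body tissues, 2 reached a scaled RPKM of 1 in any library, Brdt and Tdrkh, and both were lower in the leukemias. Tdrkh, a partner of piRNA proteins, went from 3.28 to 3.59 in thymus to 0.65 to 3.27 in WT T-ALL (log2 change -1.99, limma adjusted p = 1.13e-06) and to 0.74 to 1.48 in Notch3 KO T-ALL (-2.26, limma adjusted p = 5.74e-05). Brdt, the testis member of the BET family, changed by -0.90 (limma adjusted p = 0.00085) and -1.09 (limma adjusted p = 0.00587). The summed scaled RPKM of the list was 12.4 to 16.9 in thymus, 1.87 to 11.2 in the wild-type and 2.78 to 4.57 in the knockout leukemias. Some of the 16 were listed at 0 in every library, which need not mean absence, since Sco2, a copper chaperone of mitochondria that respiring cells use, was also listed at 0.00 in some libraries.

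Markers of other cells also moved with the groups, and their part in the members' changes was not tested beyond the slopes and covariates given. All 10 erythroid markers were higher in each leukemia group, with a summed scaled RPKM of 0.799 to 2.97 for thymus, of 49.7 to 789 for the wild-type and of 407 to 2100 for the knockout leukemias. Neutrophil markers were higher for 10 of 10 genes in WT T-ALL and 4 of 10 in Notch3 KO T-ALL, with sums of 58.9 to 541, 664 to 87400 and 207 to 7760. Macrophage markers were higher for 5 and 6 of 7 tested, with sums of 10.5 to 54.9, 18.6 to 280 and 196 to 284, and megakaryocyte markers for 6 of 6 in each, with sums of 0.705 to 1.27, 4.27 to 201 and 61.6 to 187. None of these genes was at 0 in every library of a group. B cell markers were lower for 4 of 4 tested, with sums of 17.6 to 23.6, 0.687 to 5.81 and 0.720 to 1.75 (Pax5 at 0 in Notch3 KO T-ALL), and thymic epithelium markers for 2 of 2, with sums of 67.4 to 107, 4.03 to 39.3 and 10.3 to 92.2 (Foxn1, Psmb11 and Krt5 at 0 in Notch3 KO T-ALL). T cell markers were present throughout, at sums of 3230 to 4090, 1640 to 3650 and 2220 to 2800, with 5 of 10 lower and 0 higher in WT T-ALL (median change -0.38) and 3 lower and 0 higher in Notch3 KO T-ALL (median change -0.44). The double-positive thymocyte markers were lower for 8 of 8 genes in each leukemia group, at 3200 to 4360, 139 to 835 and 222 to 1220.

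Within WT T-ALL, slopes on the cell cycle, erythroid and neutrophil scores were fitted, and Tet2 on the neutrophil score was the 1 slope of a member that was called. The neutrophil score, the mean log2 level of 10 neutrophil genes, was 10.97 in T-ALL 110, 9.03 in T-ALL 108 and 7.67 in T-ALL 126, and these held Tet2 at 2.35, 2.08 and 1.89. T-ALL 7 was off this pattern, with a score of 5.46 and Tet2 at 2.20, and it also stood apart in its mitochondrial share of summed scaled RPKM, at 45.89% against 10.26% to 20.88% in the other WT T-ALL libraries. Tet2 rose by 0.28 per unit of the score (SE 0.07, limma adjusted p = 0.0303), and 6.60% of 11466 genes were called on this slope (1.83% without T-ALL 110 and 0.374% without both 108 and 110). The call was lost without T-ALL 4 (limma adjusted p = 0.0527), 5 (0.0649), 36 (0.0523), 108 (0.107) or 110 (0.306), with slopes of 0.25 to 0.28, and without both 108 and 110 the slope was 0.23 (limma adjusted p = 0.717). It was also lost with quantile normalization (0.22, limma adjusted p = 0.0868) and after rescaling to the same sum (0.25, limma adjusted p = 0.109). In thymus the neutrophil score was 1.83 to 3.70, below every WT T-ALL library, and Tet2 was higher in all 6. With this score as a covariate the change of Tet2 from thymus was -2.15 and was called, although the score did not overlap between these groups. On the erythroid score 0 members were called, beside 0.863% of 11466 genes, a share of 0.238% without T-ALL 108 and 0.508% without T-ALL 5.

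**Figure D5:**
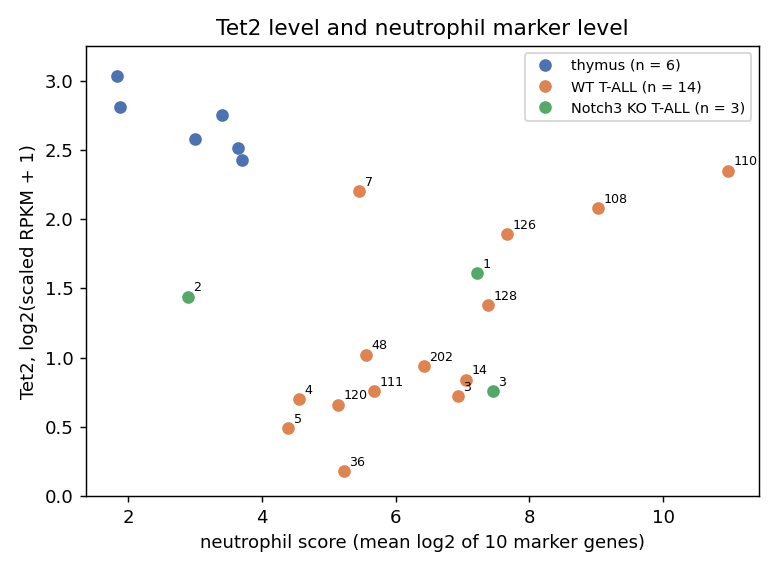
Tet2 level, as log2(scaled RPKM + 1), against the neutrophil score (mean log2 level of 10 marker genes) in each library, with the library number beside each leukemia. The WT T-ALL libraries rise from Tet2 of 0.18 to 0.84 at scores of 4.39 to 7.05, apart from T-ALL 7, 48 and 202, to 2.35 at 10.97, and the 6 thymus libraries sit at 2.43 to 3.03 with scores of 1.83 to 3.70.

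Across the 14 WT T-ALL libraries the members moved together only in part, and the figures that follow are descriptions over libraries that share one scaling. Pearson's r was 0.55 between Dnmt1 and Uhrf1, 0.56 between Dnmt3b and Uhrf1, 0.59 between Uhrf1 and Tet3 and -0.30 between Tet1 and Tet2. The genes most like each member were Adnp2, Dctn1 and Eif4ebp2 for Dnmt1 (r of 0.943, 0.942 and 0.922), Smpd4, Dnal4 and Rnps1 for Uhrf1 (0.929, 0.913 and 0.907) and Anks1, Gpatch3 and Prr3 for Dnmt3b (0.876, 0.870 and 0.833). For the erasers they were Edem2, Kcnk6 and Adgrg3 for Tet2 (0.910, 0.907 and 0.904), Arid1a, Rgp1 and Rhot2 for Tet3 (0.912, 0.911 and 0.898) and Lrpprc, Ltn1 and Sdad1 for Tet1 (0.799, 0.767 and 0.762). For Dnmt3a they were Dnajc27, Trmt44 and Rftn1 (0.933, 0.881 and 0.861), of which Dnajc27, a gene of the run on chromosome 12, fell to 0.745 over the 13 libraries without T-ALL 5, Trmt44 to 0.696, and Rftn1 stayed at 0.861.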

How the data were processed

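The deposited log2 values were made by the authors from RPKM. By the study's methods, KAPA stranded mRNA libraries were aligned against mm10 transcripts by OSA within ArrayStudio (version not given in the sources used here), and whether strand was used in counting is not stated. The minimum of 0 and the 75th percentile of 3.458 to 3.459 in every column match log2(RPKM + 1) with RPKM scaled to a 75th percentile of 10.0, and this scale was read from the values. Depth is given only approximately and for all samples together, so no interval that needs it is given. A spreadsheet had turned 27 symbols into dates, which were restored by gene identifier.

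Genes with 3 or more fitted libraries at a scaled RPKM of 1 or higher were kept and fitted by limma 3.58.1 under R 4.3.3 (lmFit, then eBayes with trend and robust) and called at a Benjamini-Hochberg adjusted p under 0.05 over all genes tested. All 3 groups were in 1 fit for the comparisons with thymus, and the leukemias alone for the third. Replicates were separate samples by their labels, and nothing says more of the controls than that, so p-values measure the spread between these libraries. Exact permutation tests and figures used Python 3.11.15. The fits were tested on simulated data. Correlations and slopes within WT T-ALL used its 14 libraries.

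The 7 members and all gene lists were chosen with earlier results of these data known. The genes named were all members, of the partner lists up to 8 rises and 8 falls per comparison by size among those called (genes without overlap between groups first), the 3 genes most correlated with each member, and germline genes above a scaled RPKM of 1. Some partner genes that this rule would name are not reported here. A few more were singled out after their values were seen (the run beside Dnmt3a). Positions and start windows are from RefSeq on GRCm38.p6, which has the sequence of mm10. Alternatives were other offsets, filters, scalings, covariates, a replicate block and leaving out each library.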

Additional observations from a re-analysis of the deposited data

How the results depend on the processing

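Over the alternatives, the change of Tet2 from thymus in WT T-ALL stayed negative in all 38 (-2.39 to -0.75) and was called in 36, and Dnmt3a was called in 0 of 38. The number of members called in WT T-ALL against thymus (6) became 3 after rescaling to the same sum, 1 with the cell cycle score, 0 with the erythroid score and 2 with the neutrophil score as covariate, in fits that called 54.6%, 8.28%, 4% and 29.6% of all genes, and was 6 without any 1 library. The partner genes called (30) became 4 and 3 with the cell cycle and erythroid scores. After rescaling, 28 partner genes (8 higher, 20 lower) were called there and 18 (4 higher, 14 lower) in Notch3 KO T-ALL. In Notch3 KO T-ALL against thymus the members called (4) became 1 and 0 with those scores (beside 3.67% and 0.403% of all genes) and 2 to 5 without 1 library (24.1% to 36.2%), and the partner genes called (25) became 1 and 0, and 14 to 23 without 1 library. The erythroid and cell cycle scores do not overlap between thymus and leukemia, nor the neutrophil score between thymus and WT T-ALL, so these covariates stand in for the group. The cause of the other shifts was not tested. Between the leukemia groups the 1 partner gene called became 0 with offsets of 0.1 and 0.01, a filter at 5, rescaling, the cell cycle and erythroid scores, the library set as a term, within the high Sco2 set and by the exact permutation test, and 0 to 1 without 1 library. The 1 member called on the neutrophil slope became 0 with quantile normalization, rescaling, or without the 2 farthest libraries, and 0 to 1 without 1 library.

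Replicate numbers did not pair the samples. Over the numbers shared with thymus the correlation of deviations was -0.24, 0.09 and 0.13 for WT T-ALL and 0.04, -0.03 and 0.15 for Notch3 KO T-ALL. With a replicate block, which leaves 3 numbers a group, 2 members and 10 partner genes were called in WT T-ALL (2 and 17 in the same libraries without the block), beside 18.4% (21.4%) of all genes, and 3 members and 16 partner genes in Notch3 KO T-ALL, beside 33.5%. No paired analysis was possible because, for Notch3 KO against WT T-ALL, the groups share 1 number. Alternatives added after seeing the data were the library sets, the averaged pairs, thymus 5 and 6 left out and the same libraries without the block. Within the high Sco2 set 3 members and 11 partner genes were called in WT T-ALL (14.7% of all genes), and 14 partner genes in Notch3 KO T-ALL (32.5%), and with thymus pairs averaged 3 members and 19 partner genes in WT T-ALL (30.5%).

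Some changes reversed. With the cell cycle score Dnmt1 was -0.25 and Uhrf1 -0.12 in WT T-ALL, and Dnmt1 -0.11, Uhrf1 -0.37 and Pcna -0.25 in Notch3 KO T-ALL. With the erythroid score Dnmt3a was -1.15, Gadd45a -0.69 and Neil1 0.08 in Notch3 KO T-ALL. After rescaling Ahcyl1 was -0.09 in WT T-ALL and Dnmt3a -0.15 in Notch3 KO T-ALL. Between the leukemia groups Dnmt3b was 0.22 with the erythroid score and -0.49 to 0.32 without 1 library. There Uhrf1 was -0.04 with quantile normalization, rescaling or the neutrophil score, -0.28 with the cell cycle score, -0.43 with the set as a term and within the high set, and -0.21 to 0.15 without 1 library. Tet2 was -0.0015 with quantile normalization and -0.06 to 0.37 without 1 library, and Tet3 was -0.24 with the set as a term and within the high set and -0.13 to 0.24 without 1 library.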
